A study of Homo sapiens with 12 samples.

Results

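Added ERG was compared with its control in RWPE1, a cell line of human prostate epithelium that grows in culture without forming tumours, at 48 h after transfection. RWPE1 cells in KSFM growth medium received either a GFP construct or a GFP-ERG construct, and their total RNA, carrying a biotin label, was read on 1-colour bead arrays from Illumina. GFP is green fluorescent protein and was part of both constructs, so the groups differ by the ERG part. The labels do not state the promoter of the constructs or the form of ERG. There were 2 arrays of GFP and 2 of GFP-ERG at 48 h, which are 4 of the 12 arrays of the series and 4 of the 8 arrays of its RWPE1 table. The other 4 arrays of that table hold the same 2 constructs at 72 h and were used for the estimate of the spread and for a comparison of the times. Every probe with a gene symbol was taken, which gave 18332 of the 20589 probes and, with 1 probe per gene, 16591 genes. The design text states that transfections were done in duplicate, and the labels number the arrays of a group 1 and 2 without saying what else separates them. The p-values therefore measure the spread between these arrays. The labels do not give the share of cells that took up a construct, and each array measured the whole culture.

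ERG belongs to the ETS family of transcription factors, which bind DNA through a shared domain that recognises a core GGAA. In the healthy body it is made mainly in endothelial cells, where it holds up genes of vessel identity, and in some blood cell precursors. In many prostate cancers a fusion of the androgen-driven gene TMPRSS2 with ERG switches it on in epithelium, where it is normally silent. ETS factors often share target sites with AP-1, the FOS and JUN family of factors that growth signals and inflammation induce.

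All values are log2 signals as deposited, so a difference of 1 log2 unit is a 2-fold difference in signal. The median of all values was 7.24, and probes near it carry little signal above background. With no sign of background subtraction in the values, fold changes of dim genes are smaller than the change in RNA behind them. A gene was called when its adjusted p, from limma and adjusted by Benjamini-Hochberg over the 20589 probes of the table, was below 0.05. A call was termed firm when it held, in the same direction, under each of the 13 alternatives that held the gene, which include leaving out each of the 4 arrays in turn. One alternative leaves out genes with no group mean at the median signal, so a call below it, such as those of THY1 and ATOH8, rests on the others. The cells showed the pattern of basal prostate epithelium. Of 11 measured basal markers 10 lay at or above the median, with KRT5 at 13.41 and KRT14 at 14.16 as the means of the GFP arrays, against 4 of 12 luminal markers, with KLK3 at 6.47 and HOXB13 at 6.71. The probe for CDH1, the epithelial cadherin, lay below the median in both groups, with a GFP mean of 6.95 and a difference of 0.06 (SE 0.07, adjusted p = 0.774), so its level could not be read. The mesenchymal filament VIM was bright, at 14.51 and 14.48, and did not pass the test (difference -0.03, SE 0.07, adjusted p = 0.888).

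Promoter sequences are shown for genes that moved most, since ETS factors recognise a core GGAA. Sites outside promoters were not looked at. They are the 300 bases around the transcription start (250 before and 50 after), from RefSeq on GRCh38.p14, with the motif CGGAAGT, or else GGAAGT, in capitals where it or its reverse complement occurs. Among the 14 genes with the largest rises, 10 had a promoter in the table and 2 of these held GGAAGT on either strand. TMEM217 (chr6:37258095-37258394, minus strand), a membrane protein gene, and CEMIP (chr15:80779120-80779419, plus strand), which takes part in breaking down hyaluronan, were these 2 genes.
TMEM217: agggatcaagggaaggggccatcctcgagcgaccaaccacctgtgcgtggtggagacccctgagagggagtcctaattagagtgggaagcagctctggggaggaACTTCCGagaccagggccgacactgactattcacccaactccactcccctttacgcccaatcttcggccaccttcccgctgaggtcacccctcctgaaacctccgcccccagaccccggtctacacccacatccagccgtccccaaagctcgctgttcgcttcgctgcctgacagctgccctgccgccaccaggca
CEMIP: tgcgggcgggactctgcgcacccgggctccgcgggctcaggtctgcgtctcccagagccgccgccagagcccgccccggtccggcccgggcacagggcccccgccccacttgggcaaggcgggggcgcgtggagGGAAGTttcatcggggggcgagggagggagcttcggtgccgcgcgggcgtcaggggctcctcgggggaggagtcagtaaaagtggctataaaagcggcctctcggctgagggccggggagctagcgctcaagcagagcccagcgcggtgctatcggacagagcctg
Among the 14 largest falls, 12 had a promoter and 3 held GGAAGT. TMEM186 (chr16:8797590-8797889, minus strand) encodes a mitochondrial protein and holds CGGAAGT at 2 places, B3GNT8 (chr19:41428681-41428980, minus strand) encodes a glycosyltransferase, and FCRL6 (chr1:159800262-159800561, plus strand) encodes a receptor of the Fc receptor-like family. These 3 were added after the values were seen.
TMEM186: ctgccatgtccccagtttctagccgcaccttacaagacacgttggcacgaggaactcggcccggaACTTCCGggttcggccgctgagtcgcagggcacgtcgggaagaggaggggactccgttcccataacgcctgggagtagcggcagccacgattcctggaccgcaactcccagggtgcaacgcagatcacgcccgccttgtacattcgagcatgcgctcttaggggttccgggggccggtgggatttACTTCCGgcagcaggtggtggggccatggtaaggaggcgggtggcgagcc
B3GNT8: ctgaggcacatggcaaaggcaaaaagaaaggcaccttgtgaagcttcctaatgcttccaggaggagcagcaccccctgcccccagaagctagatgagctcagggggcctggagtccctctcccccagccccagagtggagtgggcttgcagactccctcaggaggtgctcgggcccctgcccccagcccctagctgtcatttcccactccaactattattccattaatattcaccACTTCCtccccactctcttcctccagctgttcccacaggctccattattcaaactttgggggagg
FCRL6: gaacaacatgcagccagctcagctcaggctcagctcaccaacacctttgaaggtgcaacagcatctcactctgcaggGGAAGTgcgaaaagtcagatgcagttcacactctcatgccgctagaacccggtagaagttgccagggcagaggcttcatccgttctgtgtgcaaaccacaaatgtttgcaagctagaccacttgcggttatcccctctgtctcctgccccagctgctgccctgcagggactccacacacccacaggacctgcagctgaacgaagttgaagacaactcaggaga

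A promoter in the table was found for 13432 of the 16591 genes. CGGAAGT occurred on either strand in 10.3% of them, in 35 of 638 (5.49%) of those of genes called higher and in 92 of 506 (18.2%) of those called lower. The shorter GGAAGT, which counts every CGGAAGT as well, occurred in 25.4% of all, 20.4% of higher and 33.8% of lower genes. The unrelated motif GATAAG occurred in 5.12%, 3.92% and 4.35%. Bright genes held CGGAAGT more often, so the shares were also read at matched signal. Between the median and the upper quartile of signal they were 12.6% of all, 5.20% of higher and 17.2% of lower genes, and above the upper quartile 16.9%, 7.02% and 20.2%. Among genes that moved by at least 0.5 log2 units the CGGAAGT shares of higher and lower genes lay closer together, at 5 of 87 (5.75%) and 9 of 133 (6.77%). In the same genes GGAAGT occurred in 26.4% of higher and 24.1% of lower genes, and GATAAG in 4.60% and 6.77%. The larger share among lower genes was thus not seen for GGAAGT at this size of change. These shares are descriptions and were not tested, and a match is not a bound site.

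ERG itself was read by 2 probes, which disagreed. The probe for transcript NM_182918 read 6.30 and 6.43 in the GFP arrays and 7.33 and 7.29 in the GFP-ERG arrays. Both GFP-ERG arrays lay above both GFP arrays, by 0.95 (SE 0.07, adjusted p = 2.05e-09). The probe for NM_004449, the brighter over all 8 arrays and so the one counted for the gene, read a mean of 6.93 ± 0.08 with GFP and 6.92 ± 0.12 with GFP-ERG (SD of 2 arrays each), and the groups overlapped (difference -0.01, adjusted p = 0.983). The rise was seen on 1 of 2 probes, from below the median of all values with GFP to just above it with GFP-ERG, and no fold is given because the GFP signal may be background. Probe positions on the transcripts were not used here, so which probe reads the construct was not tested.

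At 48 h, 1408 of 16591 genes (8.49%) were called, 780 (4.70%) higher with GFP-ERG and 628 (3.79%) lower. Counted by probe, 1469 of 18332 (8.01%) were called, 801 (4.37%) higher and 668 (3.64%) lower. Most changes were small. The median rise among called genes was 0.30 log2 units and the quartiles were 0.25 and 0.41, while the median fall was 0.32, with quartiles of 0.26 and 0.50. Rises of 1 log2 unit or more were few, at 30, as were falls of that size, at 26, and 116 rises and 159 falls measured 0.5 or more. Calls were made mainly where signal was present: below the lower quartile of signal 0.570% of genes were called higher and 0.163% lower, against 7.48% and 6.90% above the upper quartile. Firm calls numbered 272 higher (1.64%) and 257 lower (1.55%). The counts fell by over 1.5 times to 437 and 356 without GFP array 1, to 397 and 393 without GFP array 2, and to 348 and 311 when a background was subtracted from each array. Of the 5 brightest genes called higher, PI3 rose by 1.52 and was firm, and FTL, ANXA1, DNAJA1 and SOD2 rose by 0.25, 0.24, 0.27 and 0.33, none of these firm. Of the 5 brightest called lower, RARS1 fell by 0.32 and was firm, and CDC14B, HERC5, GARS1 and AVPI1 fell by 0.30, 0.29, 0.27 and 0.27, none of these firm. In every called gene the 2 arrays of one group lay above the 2 of the other, as they did in 47.0% of all genes.

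**Figure D1:**
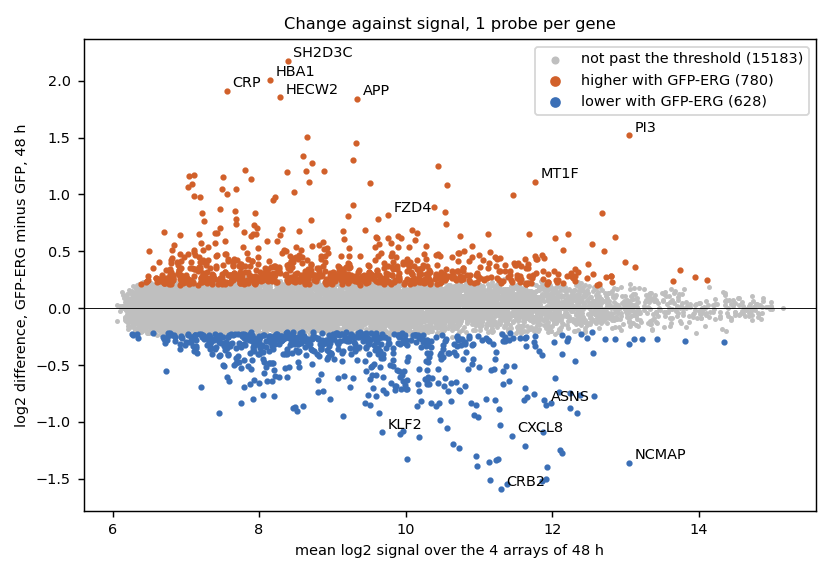
Log2 difference between GFP-ERG and GFP at 48 h (y axis) against the mean log2 signal of the 4 arrays (x axis), 1 point per gene. The 780 genes called higher are orange and the 628 called lower are blue. The smallest called differences are 0.20 and -0.21, and the largest falls lie at brighter signals than most of the largest rises.

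The largest rise was that of SH2D3C, an adaptor protein of integrin and receptor signalling. It read 7.37 and 7.23 in the GFP arrays and 9.51 and 9.44 in the GFP-ERG arrays, a difference of 2.17 (SE 0.07, adjusted p = 1.20e-14). A second SH2D3C probe, below the array median with GFP, rose by 0.30 (adjusted p = 0.00357). HECW2, a ubiquitin ligase, read 7.40 and 7.32 in the GFP arrays and 9.34 and 9.09 in the GFP-ERG arrays (difference 1.85, SE 0.08, adjusted p = 6.14e-13). RASIP1, which binds Ras-family GTPases and is needed for vessel lumens to form in mice, read 8.59 and 8.60 in the GFP arrays and 10.02 and 10.09 in the GFP-ERG arrays (difference 1.46, SE 0.06, adjusted p = 1.28e-12). In all 3 genes the GFP-ERG arrays stood more than 1 unit above the GFP arrays.

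Rises of similar size were seen in genes of the acute phase and of defence. CRP, the C-reactive protein that the liver secretes in inflammation, read 6.57 and 6.64 in the GFP arrays and 8.55 and 8.49 in the GFP-ERG arrays (difference 1.91, SE 0.07, adjusted p = 3.43e-14), and its GFP arrays lay below the array median. PI3, the protease inhibitor elafin of epithelial surfaces, was bright and read 12.20 and 12.37 in the GFP arrays and 13.70 and 13.91 in the GFP-ERG arrays (difference 1.52, SE 0.08, adjusted p = 1.01e-11). CXCL16, a membrane-bound chemokine, read 8.64 and 8.61 in the GFP arrays and 9.89 and 9.98 in the GFP-ERG arrays (difference 1.30, SE 0.06, adjusted p = 6.92e-12). HBA1, a gene of haemoglobin alpha, read 7.12 and 7.17 in the GFP arrays and 9.20 and 9.10 in the GFP-ERG arrays (difference 2.01, SE 0.07, adjusted p = 1.80e-14). HBA1 and HBA2 have near-identical sequences, so the probe may read either. HBA1 was the only one of 10 measured erythroid markers that passed, and HBB stayed below the median at 6.51 and 6.49. The summed erythroid signal, which includes HBA1, was at most 10.05 with GFP and 10.54 in both GFP-ERG arrays. No background was taken off these sums, and 0 of the 10 genes lay at or above the median with GFP and 1 with GFP-ERG.

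The other large rises were of mixed function. APP, the amyloid precursor protein, read 8.47 and 8.36 in the GFP arrays and 10.28 and 10.24 in the GFP-ERG arrays (difference 1.84, SE 0.10, adjusted p = 2.54e-11) on its brightest probe, while a second probe with similar signal differed by 0.09 (adjusted p = 0.681), so the change belongs to 1 of 2 APP probes. CEMIP read 7.84 and 7.97 in the GFP arrays and 9.45 and 9.36 in the GFP-ERG arrays (difference 1.50, SE 0.07, adjusted p = 4.60e-12). CA2, a carbonic anhydrase, read a mean of 9.82 ± 0.15 with GFP and 11.07 ± 0.09 with GFP-ERG (SD of the 2 arrays; difference 1.25, SE 0.08, adjusted p = 1.41e-10). C1orf54, RGCC (a regulator of the cell cycle), TMEM217 and DAB2 (an endocytic adaptor of growth factor signalling) rose by 1.34, 1.27, 1.21 and 1.21, with adjusted p from 1.01e-11 to 9.08e-11. All 14 were firm calls.

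**Figure D2:**
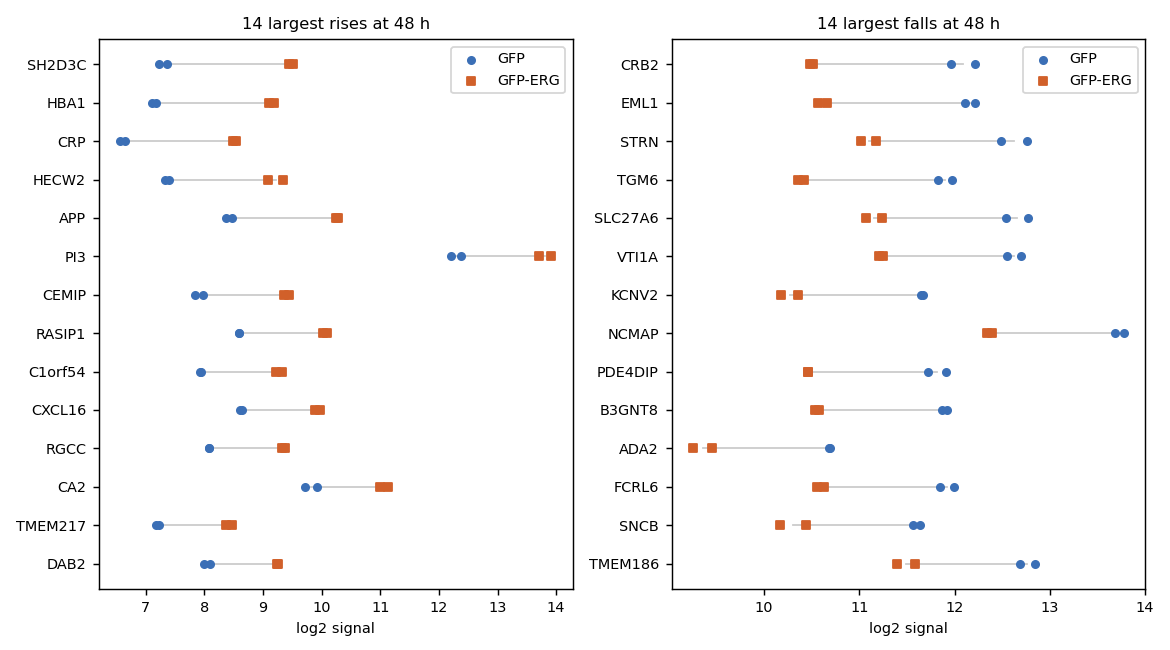
Log2 signal (x axis) of the 14 genes with the largest rises (left) and the 14 with the largest falls (right) at 48 h, with 1 point per array, blue circles for GFP and orange squares for GFP-ERG, and a grey line between the group means. In each gene the 2 pairs of arrays lie apart, and the genes that fell started from GFP means of 10.69 to 13.73.

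The 14 largest falls came from bright probes, and the genes are not ones usually grouped together. CRB2, a protein of epithelial cell polarity, read 12.22 and 11.97 in the GFP arrays and 10.48 and 10.52 in the GFP-ERG arrays (difference -1.59, SE 0.08, adjusted p = 1.60e-11). EML1, a microtubule-binding protein, read 12.21 and 12.11 in the GFP arrays and 10.56 and 10.66 in the GFP-ERG arrays (difference -1.55, SE 0.07, adjusted p = 8.29e-13). STRN, striatin, a scaffold of a phosphatase complex, read 12.76 and 12.49 in the GFP arrays and 11.02 and 11.18 in the GFP-ERG arrays (difference -1.52, SE 0.08, adjusted p = 2.54e-11). TGM6, a transglutaminase, fell by 1.51, the fatty acid transporter SLC27A6 by 1.50, the vesicle fusion protein VTI1A by 1.39 and the potassium channel subunit KCNV2 by 1.39. NCMAP, a myelin protein, was the brightest of them at 13.78 and 13.69 in the GFP arrays and 12.34 and 12.40 in the GFP-ERG arrays (difference -1.36, SE 0.07, adjusted p = 5.88e-12). PDE4DIP, B3GNT8, ADA2 (a secreted adenosine deaminase), FCRL6, SNCB (beta-synuclein) and TMEM186 fell by 1.35, 1.34, 1.33, 1.32, 1.30 and 1.27.

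Of these 14 genes, 4 had other probes, and none of the other probes passed the test. The second probe of EML1 read a mean of 6.31 with GFP and differed by -0.05 (adjusted p = 0.773), and that of SLC27A6 read 6.83 and differed by -0.09 (adjusted p = 0.552). The second SNCB probe read 6.76 and differed by -0.12 (adjusted p = 0.318). PDE4DIP had a pair of further probes, both below the median, which differed by -0.01 and -0.05. The bright signal and its fall were therefore seen on 1 probe in each of the 4 genes, and the other probes lay below the array median. Whether those probes match other transcripts was not tested. All 14 falls were firm, and all were also called at 72 h.

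The 31 measured endothelial genes that have been linked to ERG in vessels held 11 higher and 1 lower, against 4.70% and 3.79% of all genes. The list was drawn up with the rises of SH2D3C, HECW2, RASIP1, TFPI and FZD4 already known, so its count is not independent evidence. TFPI, the inhibitor of tissue factor in clotting, read 7.15 and 7.17 in the GFP arrays and 8.28 and 8.15 in the GFP-ERG arrays (difference 1.05, SE 0.07, adjusted p = 3.60e-10), and its second probe rose by 0.45 (adjusted p = 6.56e-05). FZD4, a Wnt and norrin receptor, read 9.27 and 9.42 in the GFP arrays and 10.17 and 10.16 in the GFP-ERG arrays (difference 0.82, SE 0.07, adjusted p = 2.65e-08). TEK, the angiopoietin receptor, read 7.25 and 7.35 in the GFP arrays and 8.15 and 8.02 in the GFP-ERG arrays (difference 0.78, SE 0.07, adjusted p = 9.33e-08). SOX18, a transcription factor of vessel and lymphatic development, and EGFL7, a protein secreted by endothelium, rose by 0.65 and 0.57, and the tight junction gene CLDN5 by 0.39 (adjusted p from 2.17e-07 to 0.000454). THBD, thrombomodulin, rose by 0.35, and ICAM2 by 0.25, the latter not a firm call. EFNB2, an ephrin of arteries, was the one that fell (11.25 and 11.25 in the GFP arrays and 10.81 and 10.67 in the GFP-ERG arrays, difference -0.51, SE 0.07, adjusted p = 1.27e-05).

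The defining markers of endothelium did not appear. PECAM1 read means of 6.87 with GFP and 6.97 with GFP-ERG, CDH5 6.37 and 6.39, VWF 6.50 and 6.52, and KDR 6.96 and 7.05, all below the median. Of 12 endothelial markers 3 were called higher, TEK, CLDN5 and ICAM2, and 3 lay at or above the median in each group. Their summed signal ran from 10.57 to 10.58 with GFP and from 10.78 to 10.80 with GFP-ERG on the log2 scale. The median difference over the 31 genes was 0.08 and over all genes 0.00. Fewer cells of a type and less RNA per cell cannot be told apart in such whole-culture samples.

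Genes of inflammation moved in both directions. Of 18 measured NF-kappaB feedback and response genes, 6 were higher and 3 lower, of 29 cytokines and members of the TNF family 9 and 3, of 22 chemokines 5 and 4, and of 26 acute-phase and innate defence genes 5 and 1, against 4.70% and 3.79% of all genes. The median differences of the 4 lists lay between -0.03 and 0.03, close to the 0.00 of all genes.

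Among the cytokines, EBI3, a subunit of some dimeric cytokines of the IL-12 family, read 7.37 and 7.27 in the GFP arrays and 8.47 and 8.44 in the GFP-ERG arrays (difference 1.13, SE 0.07, adjusted p = 7.26e-11). TNF read 7.80 and 7.63 in the GFP arrays and 8.67 and 8.67 in the GFP-ERG arrays (difference 0.95, SE 0.07, adjusted p = 3.53e-09). In both genes the GFP-ERG arrays lay well above the GFP arrays and close to each other. IL24, IL11 and IL12A rose by 0.50, 0.38 and 0.35 from GFP means of 6.86, 7.55 and 7.15. IL32 fell by 0.34 (adjusted p = 0.00177), and IL1B, the bright gene of interleukin 1 beta, by 0.27 (adjusted p = 0.0106), the latter not firm.

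The chemokines split. CXCL2 and CXCL1, which draw neutrophils through CXCR2, rose: CXCL2 read 10.19 and 10.18 in the GFP arrays and 11.05 and 10.80 in the GFP-ERG arrays (difference 0.74, SE 0.08, adjusted p = 1.50e-06) and CXCL1 read 10.85 and 10.83 in the GFP arrays and 11.27 and 11.25 in the GFP-ERG arrays (difference 0.42, SE 0.06, adjusted p = 6.92e-05). CXCL8, interleukin 8, which acts on the same receptor, fell and read 12.09 and 11.94 in the GFP arrays and 10.89 and 10.89 in the GFP-ERG arrays (difference -1.12, SE 0.07, adjusted p = 1.14e-10). The chemokine CCL2, which draws monocytes, rose by 0.71 (adjusted p = 5.84e-06), while CCL7, of the same family and also acting on monocytes, fell by 0.68 (adjusted p = 5.38e-05). CCL5 fell by 0.77 and CCL20 by 0.43. CXCL11 rose by 0.38 (adjusted p = 0.00664) but was not firm.

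Of the NF-kappaB genes, NFKBIZ, a nuclear cofactor of the pathway, rose by 0.54 (adjusted p = 0.000104), and TNIP2, TRAF1 and ICAM1 rose by 0.40, 0.39 and 0.37. TNFAIP3, the ubiquitin-editing inhibitor A20, read 11.86 and 11.59 in the GFP arrays and 11.26 and 11.18 in the GFP-ERG arrays (difference -0.51, SE 0.08, adjusted p = 0.000112) and was lower in both GFP-ERG arrays. Rises of RELA (0.43) and SOD2 (0.33) and falls of TNFAIP2 (-0.35) and PTX3 (-0.28) were called and not firm. In the defence list LCN2, which binds bacterial iron carriers, read 8.35 and 8.20 in the GFP arrays and 9.51 and 9.46 in the GFP-ERG arrays (difference 1.21, SE 0.08, adjusted p = 2.95e-10). CD14, a receptor for bacterial lipopolysaccharide, read 7.02 and 7.09 in the GFP arrays and 7.91 and 8.21 in the GFP-ERG arrays (difference 1.00, SE 0.08, adjusted p = 1.24e-08). CFB, complement factor B, fell by 0.40 (adjusted p = 0.000481). CD14 was the only one of 12 leukocyte markers that was called, and PTPRC, which all leukocytes express, stayed below the median at 6.89 and 6.96. The summed leukocyte signal ran from 12.52 to 12.59 with GFP and from 12.67 to 12.69 with GFP-ERG, and its part in these results was not tested. Background was not taken off these sums, and 1 of the 12 genes lay at or above the median with GFP and 2 with GFP-ERG. The 1 with GFP was not CD14, whose GFP mean was 7.06, so another marker, which was not called, made up most of the summed signal.

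**Figure D3:**
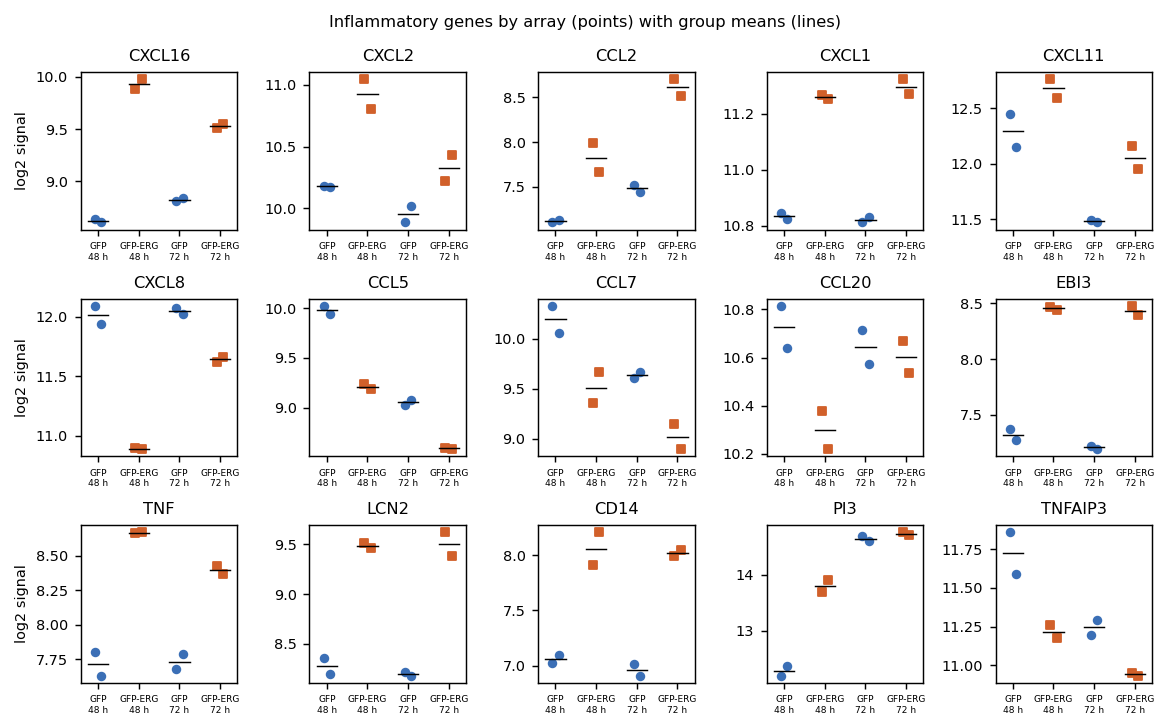
Log2 signal (y axis, scaled per gene) of 15 genes of inflammation in the 8 RWPE1 arrays, with blue circles for GFP and orange squares for GFP-ERG at 48 h and 72 h and a line at each group mean. CXCL16, CXCL2, CCL2, CXCL1, EBI3, TNF, LCN2 and CD14 are higher with GFP-ERG at both times, CXCL8, CCL5 and CCL7 are lower at both, and the PI3 groups differ by 1.52 at 48 h and by 0.09 at 72 h.

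Early response factors gave both falls and rises. Of 19 AP-1 and immediate early factors 2 were higher and 5 lower, against 4.70% and 3.79% of all genes. KLF2, a zinc finger factor induced by blood flow in endothelium, read 10.23 and 10.21 in the GFP arrays and 9.20 and 9.06 in the GFP-ERG arrays (difference -1.09, SE 0.07, adjusted p = 3.27e-10). EGR1, an early target of MAPK signalling, read 9.91 and 9.84 in the GFP arrays and 9.14 and 9.08 in the GFP-ERG arrays (difference -0.77, SE 0.07, adjusted p = 4.17e-08). These 2 were the firm calls of the list. KLF4, FOSL2 and ATF3 fell by 0.39, 0.25 and 0.24 and FOSB and FOSL1 rose by 0.28 and 0.27, none of them firm. Of 14 MAPK feedback genes, the phosphatase gene DUSP1 rose by 0.36 (adjusted p = 0.000882), DUSP5 by 0.22 (not firm), and SPRY2, an inhibitor of receptor tyrosine kinase signalling, fell by 0.44 (adjusted p = 0.000165). Of 23 ETS factors, ETV3 rose by 0.22 and ETS1 fell by 0.25, neither firm, a called share of 8.70% that lies near the 8.49% of all genes.

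Among 30 growth factors and receptors 5 were higher and 4 lower, where 4.70% and 3.79% of all genes were. HBEGF, a ligand of the EGF receptor, read 8.05 and 7.88 in the GFP arrays and 8.98 and 8.99 in the GFP-ERG arrays (difference 1.02, SE 0.07, adjusted p = 5.82e-10). GDF15, a stress-induced member of the TGF-beta family, rose by 0.54 and TGFA, another EGF receptor ligand, by 0.33. FGF18 read 9.03 and 9.02 in the GFP arrays and 8.13 and 8.21 in the GFP-ERG arrays (difference -0.86, SE 0.06, adjusted p = 3.74e-09). NRG1, a ligand of ERBB3 and ERBB4, fell by 0.40, a call that ended when its probes were averaged. Among 27 TGF-beta and BMP response genes 6 were higher and 3 lower, to be read against the same shares. ID3 and SMAD6, which BMP signals induce, rose by 0.47 and 0.41, and ATOH8 by 0.41, all firm, while the falls of BAMBI, INHBA and FST were not.

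The genes that ATF4 drives when amino acids are short or the endoplasmic reticulum is stressed were called in one direction at 48 h. Of 27 measured, 9 were lower and 0 higher by limma's adjusted p, 13 were lower and 0 higher at an unadjusted p below 0.05, and the median difference was -0.10. Of all 16591 genes 3.79% were lower and 4.70% higher by the adjusted p, and 1498 were lower and 1761 higher by the unadjusted p. ASNS, asparagine synthetase, read 12.38 and 12.29 in the GFP arrays and 11.52 and 11.45 in the GFP-ERG arrays (difference -0.85, SE 0.08, adjusted p = 9.20e-08). SLC7A11, the cystine transporter, read 8.64 and 8.56 in the GFP arrays and 7.96 and 7.69 in the GFP-ERG arrays (difference -0.77, SE 0.08, adjusted p = 4.56e-07). In both genes each GFP-ERG array lay below each GFP array. CHAC1, which breaks down glutathione, SLC3A2, the partner chain of SLC7A11, PSPH of serine synthesis and TRIB3 fell by 0.47, 0.44, 0.40 and 0.40, and these 6 were firm. PSAT1, STC2 and the glycyl-tRNA synthetase GARS1 fell by 0.23, 0.24 and 0.27 and were not firm. RARS1, the arginyl-tRNA synthetase, was among the 5 brightest genes called lower and fell by 0.32 (adjusted p = 0.00165). At 72 h, 4 of the 27 were lower and 2 higher. The ER chaperone list gave 2 higher and 1 lower of 15, none firm.

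Of 24 p53 target genes 5 were higher and 2 lower, against 4.70% and 3.79% of all genes. TP53INP1 and the repair gene XPC rose by 0.46 and 0.37, both firm, and MDM2, ZMAT3 and RRM2B by 0.52, 0.32 and 0.28, not firm. GADD45A, which ATF4 also regulates, read 13.03 and 12.87 in the GFP arrays and 12.22 and 12.14 in the GFP-ERG arrays (difference -0.77, SE 0.07, adjusted p = 7.36e-08), and BBC3, the cell death gene PUMA, fell by 0.64 (adjusted p = 2.74e-06).

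On the lists of proteolysis outside the cell, which hold proteases and their inhibitors together, called genes were higher, with 2 exceptions. Of 22 genes of plasminogen activation and serine proteases 5 were higher and 0 lower (7 and 1 at an unadjusted p below 0.05 in limma), with a median of 0.06, and of all genes 4.70% were higher and 3.79% lower. PLAT, tissue plasminogen activator, read 9.57 and 9.58 in the GFP arrays and 10.14 and 10.27 in the GFP-ERG arrays (difference 0.63, SE 0.07, adjusted p = 2.19e-06). SERPINF2, the plasmin inhibitor, rose by 0.42. TFPI and THBD, described above with the endothelial genes, were also among the 5. PLAU, urokinase, rose by 0.24 (adjusted p = 0.0204) and was not firm. Of 30 metalloproteinases and inhibitors 4 were higher and 2 lower. ADAMTS4, which cuts the proteoglycan aggrecan, read 6.63 and 6.59 in the GFP arrays and 7.70 and 7.51 in the GFP-ERG arrays (difference 0.99, SE 0.08, adjusted p = 1.76e-08), and the related ADAMTS9 rose by 0.84. Its GFP arrays and those of ADAMTS4 were below the median. The 2 exceptions, MMP3 and TIMP3, fell by 0.23 and 0.30 and were not firm.

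On the matrix list the few called genes were all higher, and on the junction and keratin lists the few called genes were all lower. The median differences of these lists were 0.11, -0.03 and -0.07. Of all genes 4.70% were higher and 3.79% lower, and 1.64% and 1.55% firmly so. Of 33 collagens and matrix proteins 7 were higher and 0 lower (14 and 1 at an unadjusted p below 0.05 in limma), with CEMIP and COL4A1, a basement membrane collagen, firm. COL4A1 read 11.91 and 11.86 in the GFP arrays and 12.43 and 12.36 in the GFP-ERG arrays (difference 0.51, SE 0.07, adjusted p = 1.44e-05), and its partner chain COL4A2 rose by 0.27, not firm. Of 18 mesenchymal genes 3 were higher (THY1 by 0.38, FOXC2 by 0.29, SNAI1 by 0.26) and 2 lower (ZEB2 by 0.32, TWIST1 by 0.26), and only the THY1 call was firm. THY1 was also the 1 called of 12 fibroblast markers, whose summed log2 signal ran from 12.96 to 12.97 with GFP and from 12.87 to 12.92 with GFP-ERG. Of 30 epithelial junction genes 3 were lower and 0 higher, against 4 and 1 at an unadjusted p below 0.05 in limma. The called share of 10% lay near the 8.49% of all genes, and CLDN7, which fell by 0.26, was not firm. CLDN1, a tight junction protein, read 11.68 and 11.53 in the GFP arrays and 11.05 and 11.05 in the GFP-ERG arrays (difference -0.56, SE 0.07, adjusted p = 8.61e-06), and PKP2, a desmosome protein, fell by 0.40. Of 14 keratins KRT80, KRT10 and KRT16 were lower, by 0.32, 0.31 and 0.30, the last not firm, while the basal keratins KRT5 and KRT14 differed by -0.11 (SE 0.07, adjusted p = 0.507) and -0.16 (SE 0.07, adjusted p = 0.262). Among 25 squamous differentiation genes 2 were higher and 3 lower, and SPRR1A, a precursor of the cornified envelope with a near-identical copy in SPRR1B, fell by 0.49.

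In the Notch pathway 4 of 25 genes were higher and 0 lower, against 6 and 2 at an unadjusted p below 0.05 in limma and against 4.70% higher and 3.79% lower of all genes. The ligand DLL1 and the target factor HEY1 rose by 0.38 and 0.37, both firm, and JAG1 and LFNG by 0.29 and 0.32, not firm. In the Wnt lists, FZD4 and WNT7A (by 0.27, not firm) were higher of 42 receptors, ligands and transducers, and KREMEN2, a co-receptor of the Dickkopf inhibitors, and DKK1 were lower of 22 targets and inhibitors. The 4.76% called in the first list lay below the 8.49% of all genes, and the 9.09% in the second lay near it. KREMEN2 read 10.57 and 10.42 in the GFP arrays and 9.82 and 9.83 in the GFP-ERG arrays (difference -0.67, SE 0.07, adjusted p = 3.99e-07) and DKK1 fell by 0.27, not firm. Of 15 metallothionein and zinc genes 3 were higher. MT1F, which binds zinc and copper, read 11.20 and 11.22 in the GFP arrays and 12.33 and 12.32 in the GFP-ERG arrays (difference 1.11, SE 0.06, adjusted p = 3.41e-11), with the proviso that genes of the MT1 family are close copies. Among 21 heat shock genes HSPA2 and DNAJB6 rose by 0.59 and 0.54 and HSPA6 fell by 0.66. A second DNAJB6 probe of similar signal differed by 0.03 (adjusted p = 0.868).

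Some gene classes held a smaller called share than the 8.49% of all genes. Of 34 mitosis genes and 41 cytosolic ribosomal protein genes limma called 0, while at an unadjusted p below 0.05 it held 1 higher and 1 lower mitosis gene and 1 higher and 3 lower ribosomal ones. Of 32 S phase genes POLA1 and GINS2 were lower (6.25%), neither firm. The mitosis genes with the largest differences were BUB1 at 0.14 (SE 0.07, adjusted p = 0.275) and NEK2 at -0.13 (SE 0.06, adjusted p = 0.269). RPS3 and RPLP2 had the largest differences among the ribosomal genes, -0.20 (SE 0.06, adjusted p = 0.0597) and 0.18 (SE 0.07, adjusted p = 0.124). Of 36 subunits of respiratory complex I 1 was called, and of 32 interferon response genes 2, IFI27 higher by 0.40 and HERC5 lower by 0.29, the latter not firm. TBXAS1, thromboxane synthase, fell by 0.43 as the 1 gene called of 17 in the prostaglandin list (5.88%). Other lists held somewhat more calls than that share of all genes, each from few genes. Of 27 genes of cholesterol and fatty acid synthesis 3 were called (11.1%), none firm. HDAC1, a histone deacetylase, differed by 0.13 (SE 0.06, adjusted p = 0.264), and of 15 members of its class SIRT2 rose by 0.32 and HDAC9 fell by 0.27, the latter not firm (13.3% called). Of 30 hypoxia and glycolysis genes 3 were higher and 1 lower (13.3%), with the glucose transporter SLC2A3 (0.39) and the vasodilator peptide ADM (-0.41) firm, and of 19 integrins 2 and 2 (21.1%), with ITGA10 (0.45) firm. IFNB1, interferon beta, fell by 0.84 (adjusted p = 2.64e-05) from a GFP mean of 12.40. Differences under 0.20 log2 units were called in no gene, and some larger ones were not called either, such as one of 0.26 in the prostaglandin list. These are observed differences, so real changes of that size and larger could have been missed in these classes with 2 arrays per group. In simulated data the fit recovered 35.3% of changes of 0.3 log2 units and 86.4% of changes of 0.5. Only 152 probes were called there, fewer than in the real arrays, so the shares need not hold for them.

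**Figure D4:**
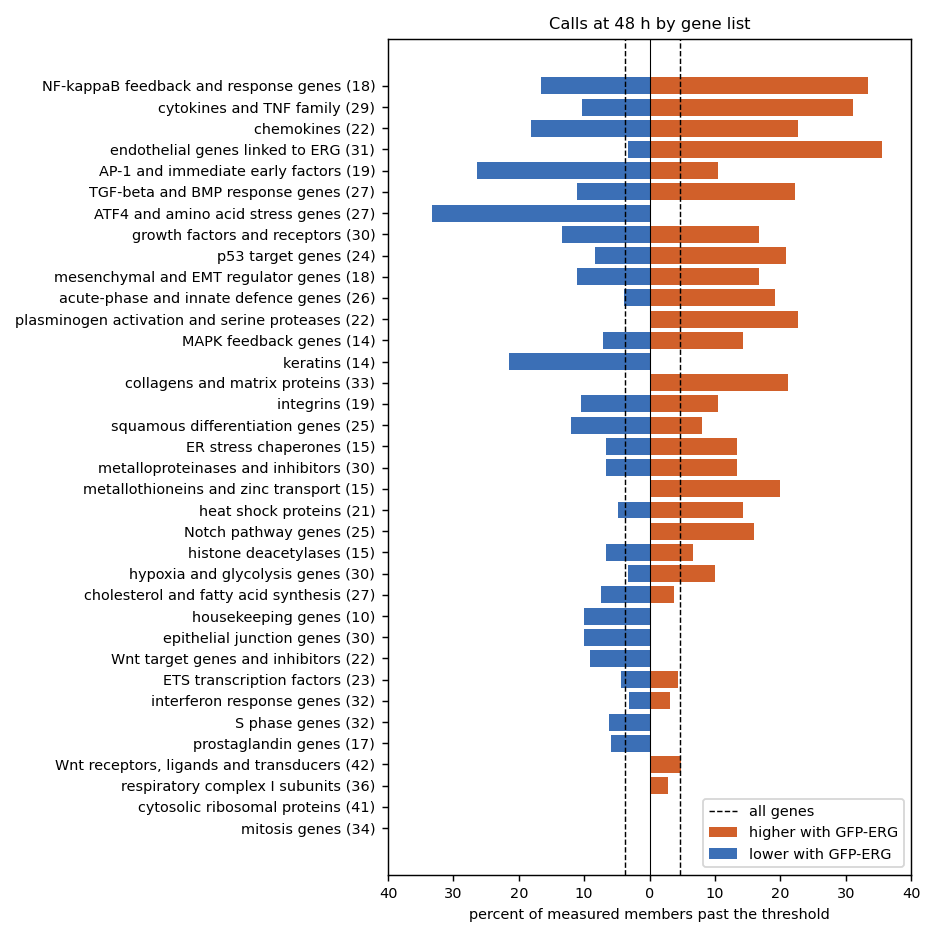
Percent of the measured members of each list (number in brackets) called higher (orange, to the right) or lower (blue, to the left) with GFP-ERG at 48 h, with dashed lines at the 4.70% and 3.79% of all genes. The ATF4 list reaches 33.3% to the left with none to the right, the endothelial list 35.5% to the right, and mitosis and ribosomal genes show no bar.

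Some genes with more than 1 probe gave different answers by probe. In 182 pairs of probes of a gene the counted probe was called, and in 63 of these the other probe was also at or above the median. The other probe had the same sign in 48 of the 63, the same call in 15 and the opposite call in 3. MECOM, a zinc finger transcription factor, was higher on one probe (0.43, adjusted p = 0.00017) and lower on another (-0.32, adjusted p = 0.0196). RHBDF2, an inactive rhomboid protein, was likewise higher on one (0.37) and lower on another (-0.30, adjusted p = 0.00495). CCNT2, ARAP1, FOXP1 and PPM1G fell by 0.80, 0.78, 0.70 and 0.73 on the counted probe with no call on the other, and ASCC3 showed the reverse, -0.73 on the probe not counted and 0.14 on the counted one. The accessions differ between probes for MECOM, RHBDF2, CCNT2, FOXP1 and ASCC3 and are the same for ARAP1 and PPM1G.

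The arrays at 72 h, which share none with those at 48 h, showed most of the larger changes again. At 72 h, 1012 genes (6.10%) were called, 516 (3.11%) higher and 496 (2.99%) lower, and 206 and 273 after background subtraction. Of the 780 genes higher at 48 h, 295 (37.8%, and 57.2% of the 72 h calls) were called higher at 72 h and 706 (90.5%) had a positive difference, the sign of 49.9% of all genes. Of the 628 lower, 312 (49.7%, and 62.9% of the 72 h calls) were called lower again and 571 (90.9%) were negative. Among changes of at least 0.5 log2 units at 48 h, 99 of 116 rises and 149 of 159 falls were called at 72 h. The median difference of the genes called at 48 h was 0.19 at 72 h for the higher and -0.23 for the lower genes, but since they were selected at 48 h, smaller values at 72 h are no evidence of a weaker response. The test of the difference itself called 76 genes (0.458%), 32 (0.193%) with a more positive and 44 (0.265%) with a more negative GFP-ERG effect at 72 h. These 2 counts depended on the processing and on single arrays: they were 3 and 3 after background subtraction, 16 and 21 without GFP array 1 of 48 h, 14 and 24 without GFP array 2, 27 and 29 without GFP-ERG array 1 and 47 and 78 without GFP-ERG array 2. Of the genes called at 48 h, 41 higher and 21 lower ones were among them, and 36 and 17 of these had the larger change at 48 h. Selection at 48 h favours that direction, so these counts are no evidence of a weaker response at 72 h either.

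PI3 and MT1F were the clearest of the rises seen at 48 h and not at 72 h. At 72 h PI3 read 14.69 and 14.60 with GFP and 14.76 and 14.71 with GFP-ERG, so that its GFP signal was near the GFP-ERG signal (change of the effect -1.43, adjusted p = 1.76e-07). The highest value in the table was 15.1, and whether the top of the signal range hid a difference was not tested. MT1F read 14.16 and 14.15 with GFP and 14.05 and 14.05 with GFP-ERG at 72 h (change of the effect -1.22, adjusted p = 1.28e-07). CA2 differed by 0.17 (adjusted p = 0.228) at 72 h and HBA1 by 1.10 (adjusted p = 1.39e-10), with changes of the effect of -1.07 (adjusted p = 7.79e-06) and -0.91 (adjusted p = 1.17e-05). The reverse was seen for HEY1, which read 8.60 and 8.54 with GFP and 9.96 and 9.95 with GFP-ERG at 72 h (change of the effect 1.02, adjusted p = 1.72e-06), and for SHISA2, whose difference went from 0.57 to 1.49. RGS4, a regulator of G protein signalling, differed by 0.03 at 48 h with no call and by 1.02 (adjusted p = 4.36e-10) at 72 h, and TNFAIP6 and SERPINA3 did likewise, from 0.09 and 0.08 to 0.94 and 0.85. The fall of CXCL8 went from -1.12 to -0.41. For HBA1, PI3, MT1F, HEY1, RGS4 and SHISA2 the difference between times also passed after background subtraction. It did not for CA2, TNFAIP6, SERPINA3 or CXCL8.

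Opposite calls at the 2 times were made for 9 genes, which are named because they were seen. ACSL4, RPL27A, RIN2, YAP1, CD164 and CYP1A1 were higher at 48 h and lower at 72 h, and CFB, PTX3 and TNFAIP2 were lower and then higher. Only the CFB call at 48 h was firm. In none of the 9 did the difference between times pass after background subtraction. CFB differed by -0.40 (SE 0.07, adjusted p = 0.000481) at 48 h and by 0.25 (adjusted p = 0.035) at 72 h, and CYP1A1, an enzyme induced by aryl hydrocarbons, by 0.27 (SE 0.08, adjusted p = 0.0282) and -0.56 (adjusted p = 3.17e-05). In CYP1A1 the GFP arrays themselves moved from 7.26 and 7.21 at 48 h to 8.31 and 8.54 at 72 h.

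**Figure D5:**
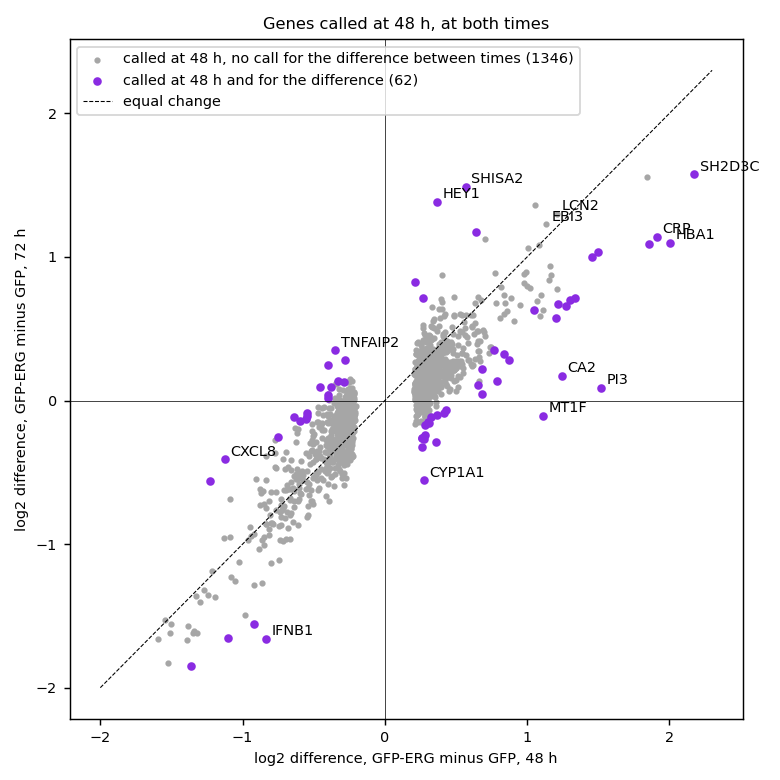
Log2 difference between GFP-ERG and GFP at 48 h (x axis) and at 72 h (y axis) for the 1408 genes called at 48 h, 1 point per gene, with a dashed line of equal change. The 62 genes that passed the test of the difference between times are purple. PI3, CA2 and MT1F lie near 0 at 72 h, and HEY1 and SHISA2 lie above the line.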

How the data were processed

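Per the labels, total RNA was isolated with Trizol and biotin-labelled cRNA was hybridised to Illumina arrays. The values the authors deposited for the 8 RWPE1 arrays were read as log2 signals from their range of 5.95 to 15.1. Another scale of similar range would change every fold given. Which software and normalization the authors used is not stated in their labels. Array medians lay at 7.23 to 7.24 and sorted values within 0.0391 of their mean, so no further normalization was applied. The number of arrays limits the precision: replicate arrays differed by an SD over probes of 0.0962 to 0.115.

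Probes were named from the supplied platform annotation: 18332 had 1 symbol, 0 several and 2257 none. Symbols looked up by Entrez identifier in the RefSeq table of GRCh38.p14 changed in 0 cases. For each gene the probe with the highest mean of the 8 arrays was counted. Differences were fitted with limma 3.58.1 in R 4.3.3 (lmFit, contrasts.fit, eBayes, no trend, not robust) on 4 group means over all 8 arrays, 2-sided, with Benjamini-Hochberg adjustment over 20589 probes and a threshold of 0.05. There were 4 residual and 16.3 prior degrees of freedom. The difference between times was an interaction contrast. The fit was tested on simulated data. There were 13 alternatives. The columns outside the series numbered 0.

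Array numbers did not pair the samples: the correlations of deviations of same-numbered arrays between groups ran from -0.0529 to 0.0694. Gene lists, members and motifs were chosen with earlier results of these data known, and lists are described by counts and medians without a list test. Named were ERG and 5 genes of interest, the 14 largest changes each way with a group mean at or above the median signal, the 5 brightest calls each way, up to 5 called members of each list each way (or 2 uncalled), the 6 largest differences between times each way and 8 genes whose probes disagreed. Marker genes and further list members that were called were added.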

Additional observations from a re-analysis of the deposited data

Results flagged for a closer look

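For 30 of the named genes the GFP-ERG effect differed between the 2 times by the interaction contrast, given here as the effect at 72 h minus that at 48 h in log2 units, with limma's adjusted p below 0.05 over all probes (0.458% of genes passed). Among the genes with large rises at 48 h the effect was smaller at 72 h, by the following amounts: PI3 -1.43, MT1F -1.22, CA2 -1.07, HBA1 -0.91, CRP -0.77, HECW2 -0.76, C1orf54 -0.62, RGCC -0.62, SH2D3C -0.60, CXCL16 -0.60, TMEM217 -0.54, CEMIP -0.46 and RASIP1 -0.46. Of smaller rises, the effect dropped for CYP1A1 (-0.83), ADAMTS9 (-0.52), MT1M (-0.50), RRM2B (-0.45) and TGFA (-0.44). Many of these genes were named for their rise at 48 h, which favours a smaller effect at 72 h. NCMAP (-0.49) and IFNB1 (-0.82) fell further at 72 h. The effect was more positive at 72 h for HEY1 (1.02), RGS4 (0.99), SHISA2 (0.92), TNFAIP6 (0.85), SERPINA3 (0.76), CXCL8 (0.71), TNFAIP2 (0.70), CFB (0.64), PTX3 (0.57) and PSPH (0.44). Of the 30, HBA1, PI3, HEY1, MT1F, RGS4 and SHISA2 passed after background subtraction too. Leaving out at least 1 array of 48 h ended the call for CEMIP, RASIP1, TMEM217, NCMAP, ADAMTS9, RRM2B, PSPH, MT1M, TGFA and IFNB1.

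Probes without a gene symbol entered no comparison of the report. Of 2257 such probes 130 passed the threshold at 48 h (5.76%), 66 higher and 64 lower, with differences from -1.28 to 2.13.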

How the results depend on the processing

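Over the 13 alternatives the counts of genes higher and lower at 48 h, 780 and 628, stayed within 1.5 times under 10 settings: 675 and 568 with only the 4 arrays of 48 h, 794 and 679 with dim probes left out, 747 and 601 when probes were averaged per gene, 807 and 652 with 1 probe per gene in the fit, 781 and 634 after quantile normalization again, 787 and 632 after median centring, 789 and 642 with a trended and robust variance, 736 and 609 with the replicate block, and 625 and 558 or 621 and 526 without 1 GFP-ERG array. Subtracting a background (each array's lowest value, with 16 added back before log2) gave 348 and 311 at 48 h, 206 and 273 at 72 h, and 3 and 3 for the difference between times. Without 1 array of 48 h in turn, higher genes numbered 397 to 625 and lower genes 356 to 558 at 48 h, 471 to 617 and 465 to 566 at 72 h, and 14 to 47 and 21 to 78 for the difference between times. Arrays of 72 h were not left out. With the replicate block, which the array numbers do not warrant, the counts were 490 and 471 at 72 h and 27 and 34 for the difference between times, and 5 named calls ended, those of ITGAV, MT3, IDI1, HDAC9 and CD24. Of 190 named genes called at 48 h, 109 kept the call under all alternatives that hold them and 81 lost it under at least 1, 73 of them under background subtraction. The sign turned when a gene's probes were averaged for ERG (0.47) and ASCC3 (-0.29), each of which has another probe that passed. Probes near the array median limit what can be read.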
